A study of Mus musculus with 30 samples.

Results

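Keratins are the intermediate filament proteins of epithelial cells. A type I keratin pairs with a type II keratin, and the pairs mark epithelial kinds: KRT8 with KRT18 in simple, single-layered epithelium, KRT5 with KRT14 in the basal layer of stratified epithelium, and KRT1 with KRT10 in the suprabasal, differentiating layers of the epidermis. In the adult nasal lining, Krt5 and Krt14 mark the basal cells that lie on the basement membrane, while sustentacular and other columnar cells carry Krt8 and Krt18. A set of 9 keratins of these kinds was followed in developing mouse olfactory tissue: Krt1, Krt5, Krt8, Krt14, Krt15, Krt17, Krt18, Krt19 and Krt23. Genes were found by symbol among the transcript clusters (1 summary value per gene region) of an exon array, taking for each gene the cluster with the highest mean over all 30 arrays and using only clusters that carried 1 symbol. By this rule 8 of the 9 listed keratins were measured, each on a single cluster, out of 14860 genes with a single symbol. Krt8 had no cluster under its own symbol and is not described. Another 28 keratins were measured, and served for comparison.

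RNA came from hand-dissected tissue of wild-type embryos of an F1 background from a C57Black6 x DBA cross. Epithelial (EPI) and mesenchymal (MES) fractions were each profiled as olfactory placode (OPL) at E11.5, as tissue of E12.5 that the labels still call placode and the study's methods call olfactory epithelium (OE), and as OE and vomeronasal organ (VNO) at E14.5, which makes 8 groups of 3 arrays. A further 6 arrays compared wild-type (WT) with Dlx5-/- nasal tissue at E12.5, on the same background, the knock-out carrying a disrupted Dlx5 allele. For the knock-out the methods describe collecting the whole epithelial lining of the nasal cavity, since olfactory and respiratory epithelium could not be told from each other there. Genotype and dissection therefore cannot be told apart in that comparison. Each RNA pool came from at least 4 embryos. Bulk tissue was measured, so fewer cells of a type and less RNA per cell cannot be told apart.

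The fraction labels were read against marker lists before the keratins. Over 7 general epithelial genes (Epcam, Cdh1, Cldn6, Cldn7, Esrp1, Grhl2, Ehf) the mean log2 value was 8.36 to 8.67 on EPI arrays and 7.29 to 7.34 on MES arrays at E11.5, and 9.34 to 9.44 against 7.99 to 8.07 at E12.5. At E14.5 this separation was smaller, with 8.93 to 9.23 against 8.62 to 8.68 in OE and 9.27 to 9.40 against 8.97 to 9.22 in VNO. Over 10 mesenchymal genes (collagens, Twist1, Prrx1, Pdgfra and others) the EPI arrays of VNO, at 11.34 to 11.38, lay above the MES arrays, at 11.09 to 11.27, so the labels of these 2 groups were not borne out by that list. The mesenchymal mean also climbed in EPI with age, from 8.37 to 8.66 at E11.5 to 10.74 to 11.17 in OE at E14.5. Values were on the log2 scale, in 2 separately normalized parts (24 time-course arrays, 6 Dlx5 arrays), and levels were compared only within each. Within the time course, array medians differed between groups, from 6.41 to 6.44 in EPI OPL to 7.10 to 7.17 in MES at E12.5. Differences are therefore given with the median shift of all clusters where it matters. A keratin is called changed where limma's adjusted p over all clusters was at most 0.05 and the log2 difference was at least 0.9 in size.

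The measured keratins lie in 2 genomic clusters. Krt23, Krt15, Krt19, Krt14 and Krt17 stand in this order on chromosome 11, and Krt15 and Krt19 are next to each other there. Krt5, Krt1 and Krt18 lie on chromosome 15, where Krt18, a type I gene, is the neighbour of Krt8 at the end of the type II cluster. The gene starts of Krt5, Krt18 and Krt23 are shown because Krt5 on the one hand and Krt18 and Krt23 on the other followed different courses in the data. Each line holds the 100 bases just before the gene start in RefSeq's annotation of build GRCm38.p6, 5′ to 3′ on the gene's strand, with the letters TATAA or ATAAAA in capitals.
Krt5 (chr15:101712906-101713005, minus strand): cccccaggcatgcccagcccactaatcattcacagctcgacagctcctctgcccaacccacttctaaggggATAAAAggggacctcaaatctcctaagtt
Krt18 (chr15:102028116-102028215, plus strand): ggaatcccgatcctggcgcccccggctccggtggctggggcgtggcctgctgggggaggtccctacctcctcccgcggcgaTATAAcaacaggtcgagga
Krt23 (chr11:99493121-99493220, minus strand): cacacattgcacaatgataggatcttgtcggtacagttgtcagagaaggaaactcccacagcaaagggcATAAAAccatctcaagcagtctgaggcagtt
Each of the 3 holds 1 such TATA-like run. The window listed for Krt14, the other measured keratin with an entry, holds neither. Krt5 has ATAAAA starting at position -29, Krt23 has it at -31 and Krt18 has TATAA at -19, counted from the gene start. On either strand, TATAA is found in 24.9% and ATAAAA in 18.5% of 32851 promoter windows of 300 bases. The letters TAATTA, a core that homeodomain proteins can bind, do not stand in the lines shown, and 5.29% of all windows hold them. Those windows are longer than the lines of 100 bases, so the shares are not a like-for-like background. These motifs were picked after the sequences had been seen.

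Across the 8 time-course groups the keratins took 3 courses, as the plot of levels by array shows. Krt5, Krt14, Krt15, Krt17 and Krt19 climbed in EPI between E12.5 and E14.5 in both organs. Krt18 and Krt23, on values as deposited, had reached nearly their E14.5 levels in EPI OE by E12.5. With arrays centred on their medians both still climbed after E12.5. Krt18 then averaged 2.87 in OPL, 3.15 at E12.5 and 3.49 in OE at E14.5. Krt23 averaged -1.27, -0.24 and 0.35 in the same groups. Krt1 was near its lowest everywhere up to E12.5 and was high at E14.5 in OE, not in VNO.

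**Figure D1:**
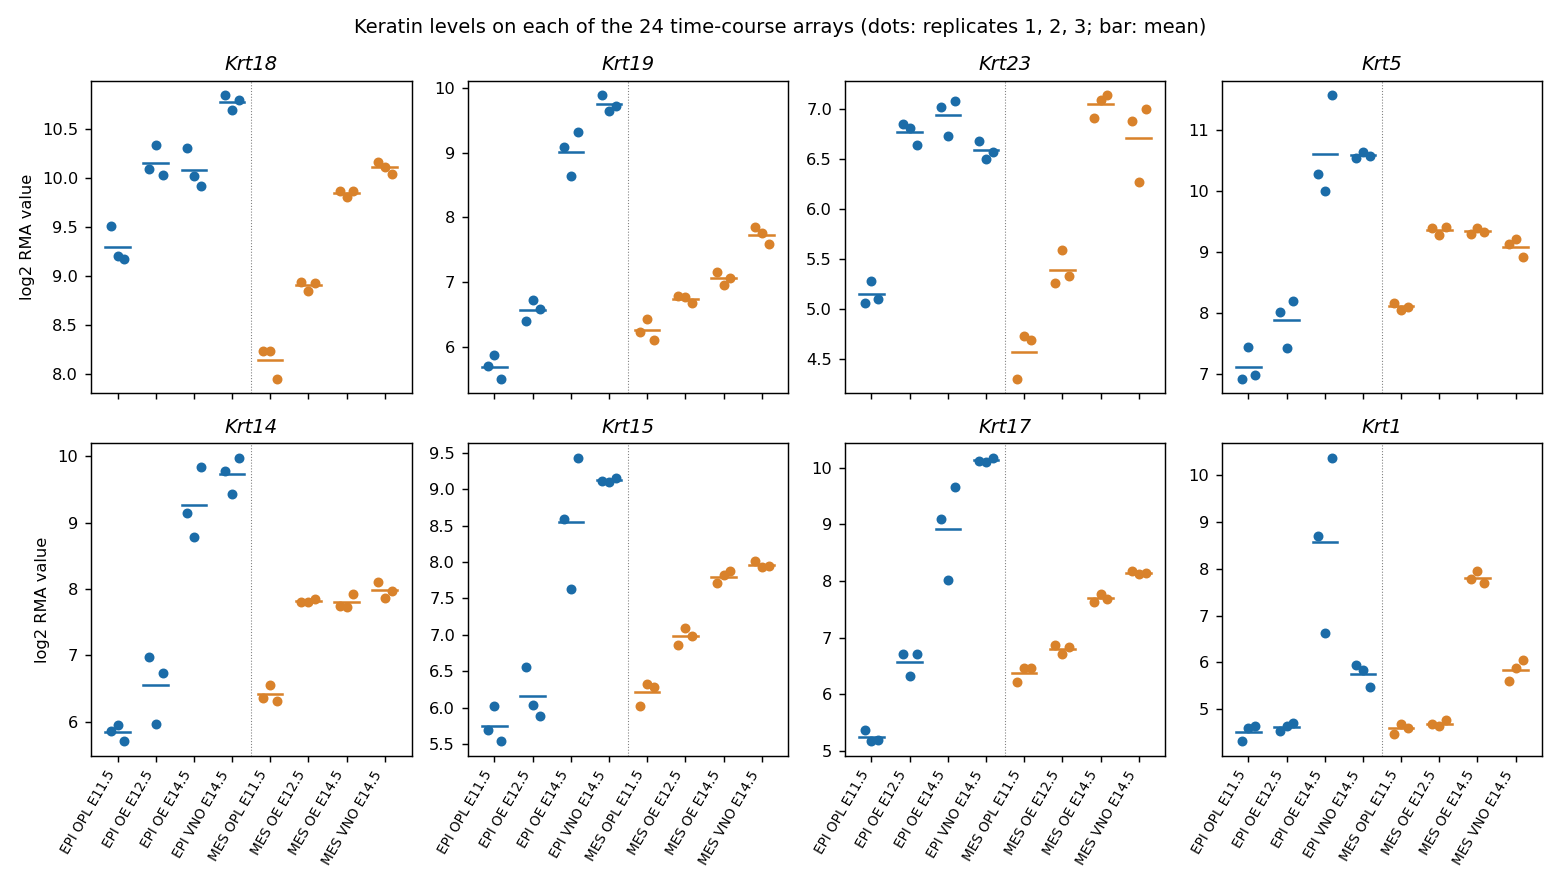
Log2 RMA values (y axes, which differ between panels and do not start at 0) of the 8 measured keratins in the 8 time-course groups (x axis). Dots are the 3 arrays of a group, bars their means, blue EPI and orange MES. Krt1 spreads from 6.63 to 10.37 within EPI OE E14.5, while Krt17 lies between 10.10 and 10.18 in EPI VNO E14.5.

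Over the 8 group means, with arrays centred on their medians, Pearson's r was 0.985 for Krt5 with Krt14, 0.979 for Krt17 with Krt19 and 0.883 for Krt18 with Krt23. It was 0.553 for Krt5 with Krt18 and 0.504 for Krt1 with Krt18. These are descriptions over 8 points that share arrays, tissue and normalization. Among 14748 genes, those most like Krt5 by this measure were Pgap4 (r = 0.988), Wdr41 (0.983) and Ddit4 (0.983). Nearest to Krt18 stood the claudin gene Cldn23 (0.988), and Cdh1, which encodes the epithelial cadherin, was close behind (0.985). For Krt1 the first was Serpinb12 (0.975) and for Krt23 it was Npas2 (0.977).

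The first question was what changed in EPI as the placode became OE between E11.5 and E12.5. Krt23, a type I keratin, rose 3.07-fold and Krt17, a type I keratin of basal and appendage epithelium, rose 2.52-fold. They were the only 2 of the 8 that were called, against 18.7% of all clusters called higher, in a comparison whose clusters shifted by a median of 0.54. Krt23 was 5.06, 5.28 and 5.11 (replicates 1, 2 and 3) in OPL and 6.86, 6.81 and 6.64 in OE, a log2 difference of 1.62 (SE 0.11, limma adjusted p = 0.00121). The groups did not overlap, but 63.9% of all clusters were also higher in OE without overlap. With arrays centred on their medians the Krt23 difference was 1.03. Krt17 was 5.37, 5.16 and 5.19 in OPL and 6.70, 6.32 and 6.71 in OE, a difference of 1.33 (SE 0.14, limma adjusted p = 0.00129). After median centring, which called 1.85% of all clusters higher, the Krt17 difference was 0.75 and it was no longer called. Rank Products, a rank-based test that called 0.633% higher, called neither gene.

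Krt18, the simple-epithelium partner of Krt8, went from 9.51, 9.20 and 9.18 in OPL to 10.09, 10.34 and 10.03 in OE. The difference of 0.86 (SE 0.14, limma adjusted p = 0.00324) stayed just under the size set for a call. Krt19, a small type I keratin of simple and transitional epithelium, differed by 0.87 (SE 0.14, limma adjusted p = 0.00305) and was also not called. Krt5 was 6.92, 7.44 and 6.99 in OPL and 8.02, 7.42 and 8.20 in OE, and Krt14 was 5.86, 5.96 and 5.70 in OPL and 6.98, 5.96 and 6.73 in OE. For both genes OE replicate 2 was the low array, inside or at the edge of the OPL range. That array also had the lowest mesenchymal mean of its group, 8.98 against 9.75 and 9.93, and the part of mesenchyme in these values was not tested. Without it Krt5 and Krt14 (1.02) were both called, which made 4 called keratins. Without OPL replicate 2 there were also 4, with Krt5 and Krt19 added. Krt1 did not differ by more than its spread (0.11, SE 0.12).

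From E12.5 to E14.5 the picture in EPI OE changed. Of the 8, the 6 genes Krt1, Krt5, Krt14, Krt15, Krt17 and Krt19, rose between 5.08-fold (Krt17) and 15.4-fold (Krt1), in a comparison where 2.36% of all clusters were called higher and 19.3% lower. Leaving out single arrays moved the Krt1 difference, 3.94 on the log2 scale, between 3.04 (without OE E14.5 replicate 3) and 4.91 (without replicate 2). The median of the 8 was 2.42 on the log2 scale, against -0.33 over all clusters. Krt18 (-0.07, SE 0.16) and Krt23 (0.17, SE 0.14) were the 2 that did not pass the test. Krt19 went from 6.41, 6.73 and 6.59 to 9.08, 8.64 and 9.32, a rise of 2.44 (SE 0.20, limma adjusted p = 0.00123). Krt14, the basal type I keratin, went from 6.98, 5.96 and 6.73 to 9.15, 8.78 and 9.84, a rise of 2.70 (SE 0.36, limma adjusted p = 0.00339). Its partner Krt5 rose by 2.73 (SE 0.44, limma adjusted p = 0.00567), from 8.02, 7.42 and 8.20 to 10.27, 9.996 and 11.57. All 3 arrays of E14.5 lay above all 3 of E12.5 for each of the 6 genes, as they did for 11.4% of all clusters. Krt18, in contrast, was 10.31, 10.02 and 9.91 at E14.5, so the ranges of the 2 ages overlapped.

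Set against OPL at E11.5, 7 of the 8 keratins were higher in EPI OE at E14.5, with 10.6% of all clusters called higher. Krt1 differed most, by 4.05 (SE 0.86, limma adjusted p = 0.0134), and also had the widest error. Its 3 arrays at E14.5 were 8.70, 6.63 and 10.37, against 4.31, 4.60 and 4.64 at E11.5. Krt17 was next, with 9.09, 8.01 and 9.67 against 5.37, 5.16 and 5.19, a rise of 3.68 (SE 0.40, limma adjusted p = 0.00198). Krt5 rose 11.3-fold, Krt14 10.7-fold, Krt19 9.93-fold, Krt15 6.98-fold and Krt23 3.47-fold. Krt18 differed by 0.79 (SE 0.17, limma adjusted p = 0.0131), below the size for a call.

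In EPI VNO at E14.5 all 8 measured keratins were higher than in OPL, with 16.2% of all clusters called higher. Their median difference was 3.43, against 0.31 over all clusters. Krt17 rose 29.7-fold, to 10.12, 10.10 and 10.18, a difference of 4.89 (SE 0.09, limma adjusted p = 7.14e-06). Krt19 rose 16.5-fold, to 9.88, 9.64 and 9.72 from 5.71, 5.88 and 5.51. For both, the lowest VNO array lay over 3 log2 units above the highest OPL array. Among the basal keratins, Krt14 rose 14.8-fold, to 9.78, 9.43 and 9.98, and Krt5 rose 11.1-fold, to 10.54, 10.65 and 10.57. Krt15, a type I keratin of basal cells, rose 10.4-fold, to 9.12, 9.11 and 9.16 from 5.69, 6.03 and 5.53. Krt18 rose 2.79-fold, Krt23 2.71-fold and Krt1 2.36-fold. Rank Products, with 2.34% of all clusters called higher, called 5 of these 8 (Krt5, Krt14, Krt15, Krt17 and Krt19).

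Values of other cell types moved beside these rises. Of 10 mesenchymal genes, 7 were higher in EPI OE and 8 in EPI VNO at E14.5 than in OPL. Of 6 respiratory and glandular genes measured (Foxj1, Bpifa1, Reg3g, Cbr2 and others), 5 were higher in each organ, and their mean went from 4.60 to 4.88 in OPL to 8.22 to 8.50 in OE and 8.996 to 9.10 in VNO. With a mesenchymal share of 0.15 subtracted from the EPI arrays, the counts of called keratins were 7 for OE and 8 for VNO, as without it. That share was the same at each age, while the mesenchymal mean in EPI climbed, so the counts do not measure the part of mesenchyme. The parts of mesenchyme and of respiratory epithelium in the keratin rises were not tested.

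Genes that hold stratified epithelium together were counted from a list of 31, of which 27 were measured. Against OPL, 3 were higher in EPI OE at E12.5, 14 in EPI OE at E14.5 and 16 in EPI VNO at E14.5, beside 18.7%, 10.6% and 16.2% of all clusters. Median differences over this list at E12.5 were 0.67, close to the 0.54 of all clusters. The desmosomal cadherin gene Dsc3 rose by 2.71 in OE and by 3.36 in VNO, and Pkp1, which encodes a desmosomal plaque protein, by 1.99 and 2.28. Perp, another desmosomal gene, rose by 1.83 and 1.97, and Dsg3, a desmosomal cadherin gene of basal cells, by 1.77 and 2.21. Tfap2a, a transcription factor of surface ectoderm, was the 1 gene of the list called lower, by 1.26 in OE and by 1.46 in VNO. Trp63, the master regulator of stratified epithelium, was not called in any of these 3 comparisons.

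Of the other 28 keratins, 5 were higher in EPI OE and 7 in EPI VNO at E14.5 than in OPL, beside 10.6% and 16.2% of all clusters. Krt10, the suprabasal partner of Krt1, rose by 2.71 in OE and by 0.91 in VNO. Krt4, a type II keratin of the suprabasal layers of internal stratified epithelium, rose by 2.08 in OE and by 2.78 in VNO. Krt77 (1.07) and Krt79 (1.04) were called in OE, and Krt75 (1.66) and Krt13 (1.27), the partner of Krt4, in VNO. Among 13 other intermediate filament genes, 6 rose in OE and 7 in VNO, led by the lamin gene Lmna (2.59 and 3.03).

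The 3 arrays of EPI OE at E14.5 spread widely, and in the same order for most of these genes. Replicate 3 was the highest and replicate 2 the lowest for Krt1, Krt5, Krt14, Krt15, Krt17 and Krt19. Krt10, at 7.91, 7.33 and 9.66, Krt77, at 5.74, 5.37 and 6.71, and Krt79, at 6.02, 5.30 and 6.50, had the same order. Krt18 did not, with replicate 1 highest. The mean of 8 olfactory and neuronal genes ran the other way, at 9.20, 9.78 and 8.98, and that of the 27 stratified-epithelium genes ran with the keratins, at 7.97, 7.57 and 8.33. Mesenchymal means were 11.13, 10.74 and 11.17 and respiratory means 8.40, 8.22 and 8.50. The part of a different mix of tissue in the 3 pools was not tested. Leaving out replicate 3 brought the Krt1 rise over OPL down to 3.15 and that of Krt17 to 3.31. Each of the 7 called keratins was still called without any single array.

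**Figure D2:**
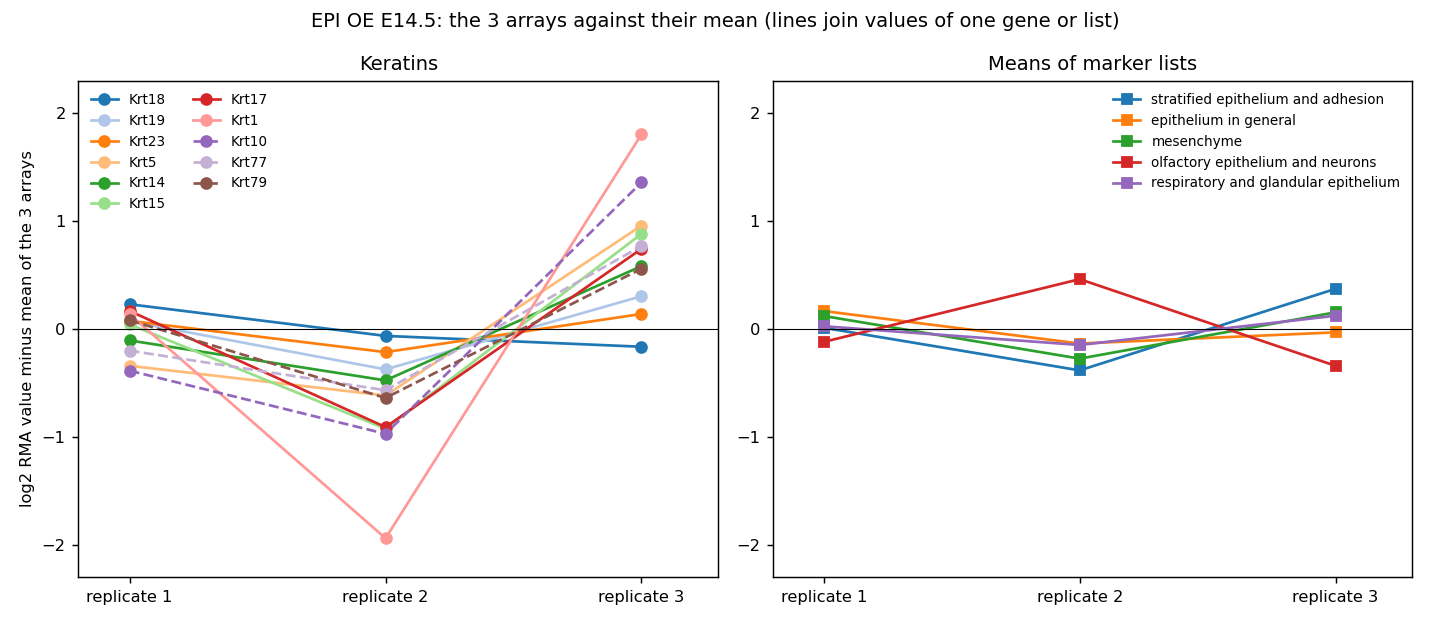
Log2 RMA values of EPI OE E14.5 arrays minus the mean of the 3 (y axis), for 8 measured keratins and Krt10, Krt77 and Krt79 (left, the last 3 dashed) and for the mean of 5 marker lists (right). Lines join the 3 arrays (x axis) of 1 gene or list and carry no order. Krt1 spans 6.63 in replicate 2 to 10.37 in replicate 3, while the olfactory and neuronal mean is highest in replicate 2 at 9.78.

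VNO was also compared with OE directly within EPI at E14.5. None of the 8 was called, against 0.215% of all clusters called higher and 0.0215% lower. Limma gave 5229 clusters an unadjusted p under 0.05, while Rank Products, with 0.224% of all clusters called lower, called Krt1 lower. Krt1 was 5.95, 5.84 and 5.48 in VNO and 8.70, 6.63 and 10.37 in OE, a difference of -2.81 (SE 0.89, limma adjusted p = 0.161). The groups did not overlap. Krt17 was higher by 1.21 (SE 0.40, limma adjusted p = 0.171), again without overlap. Krt18 (0.70, SE 0.14) and Krt19 (0.73, SE 0.20) were also without overlap, and Krt5 was level in mean (-0.03, SE 0.40). Of all clusters, 28.4% were higher in VNO without overlap and 3.98% lower. As single arrays were left out, the Krt5 difference ran from -0.34 to 0.45.

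Levels in MES climbed as well. At E12.5, 2 of the 8 keratins were higher than at E11.5, with 1.02% of all clusters called higher. They were Krt5 and Krt14, the basal pair. Krt5 went from 8.17, 8.05 and 8.10 to 9.39, 9.28 and 9.41, a rise of 1.25 (SE 0.06, limma adjusted p = 0.00077). Krt14 went from 6.36, 6.56 and 6.31 to 7.80, 7.81 and 7.85, a rise of 1.41 (SE 0.08, limma adjusted p = 0.000995). Neither then climbed much further, with Krt5 at 9.30, 9.39 and 9.34 and Krt14 at 7.74, 7.73 and 7.92 in MES OE at E14.5.

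By E14.5, 7 keratins were higher in MES OE (3.67% of all clusters called higher) and 8 in MES VNO (4.57%) than in MES OPL. Krt1 led in OE with a 9.33-fold rise, from 4.48, 4.69 and 4.60 to 7.79, 7.95 and 7.70, which is 3.22 on the log2 scale (SE 0.09, limma adjusted p = 3.7e-05). Krt23 rose 5.56-fold in OE and 4.41-fold in VNO. Krt18 rose 3.27-fold in OE and 3.91-fold in VNO, from 8.23, 8.23 and 7.95 to 9.86, 9.80 and 9.87 in OE and to 10.16, 10.12 and 10.04 in VNO. Krt19 (0.80, SE 0.11) was the 1 not called in OE.

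General epithelial markers moved with these rises in MES. All 7 were called higher in MES OE and in MES VNO at E14.5 than in MES OPL, with Ehf up by 2.77 and 3.72 and Epcam by 1.47 and 1.74. Their mean went from 7.29 to 7.34 in OPL to 8.62 to 8.68 in OE and 8.97 to 9.22 in VNO. The part of epithelium within the MES samples in the keratin rises was not tested.

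Within MES at E14.5, Krt1 was the 1 keratin called between organs, lower in VNO, where 0.628% of all clusters were called lower. It was 5.59, 5.88 and 6.05 in VNO against 7.79, 7.95 and 7.70 in OE, a difference of -1.97 (SE 0.14, limma adjusted p = 0.00391). The ranges did not overlap, and 15.9% of all clusters were lower in VNO in the same way. Krt19 (0.67, SE 0.10) and Krt17 (0.46, SE 0.07) were higher in VNO on every array, as were 16.6% of all clusters. Both were below the size for a call. Krt10, the partner of Krt1, was lower in VNO without being called (-0.78, SE 0.08), at 7.76, 7.81 and 7.84 in MES OE against 6.89, 7.11 and 7.07 in MES VNO.

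Comparing EPI with MES at each stage asks how far each keratin belonged to the epithelial fraction. At E11.5 and E12.5 the simple-epithelium keratin Krt18 was higher in EPI, while Krt5 was lower there than in MES. At E11.5 Krt18 was higher in EPI, and Krt5 and Krt17 were lower, while 0.714% of all clusters were called higher and 28% lower. Krt18 was 9.51, 9.20 and 9.18 in EPI and 8.23, 8.23 and 7.95 in MES, a difference of 1.16 (SE 0.13, limma adjusted p = 0.000615). Krt5 differed by -0.995 (SE 0.15) and Krt17 by -1.14 (SE 0.11), but all clusters had a median shift of -0.66 here. After median centring these 2 were -0.33 and -0.47 and neither was called, with 2.47% of all clusters called lower, while Krt23 was called higher in EPI (1.24), with 3.53% called higher. The differences of Krt1, Krt14, Krt15 and Krt19, none of them called, changed sign with that scaling.

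At E12.5 the split was clearer. Krt18 and Krt23 were higher in EPI, with 2.07% of all clusters called higher, and Krt5 and Krt14 were lower, with 3.53% called lower. Krt23 was 6.86, 6.81 and 6.64 in EPI and 5.26, 5.60 and 5.33 in MES, a difference of 1.37 (SE 0.12, limma adjusted p = 0.00167). Krt18 differed by 1.25 (SE 0.10, limma adjusted p = 0.00155). Krt5 was 8.02, 7.42 and 8.20 in EPI and 9.39, 9.28 and 9.41 in MES, a difference of -1.48 (SE 0.21, limma adjusted p = 0.00474). Krt14 differed by -1.27 (SE 0.26, limma adjusted p = 0.0146), and both kept their calls after median centring, with 2.25% of all clusters called lower. All 3 EPI arrays lay under all 3 MES arrays for both genes, as they did for 40.5% of all clusters. Leaving out MES replicate 1 or 3 took Krt14 just past the threshold (limma adjusted p = 0.0503 and 0.0517). Of the 27 stratified-epithelium genes, 2 were higher in EPI (Epcam 1.76, Grhl2 1.17) and 0 lower, both of which are also among the 7 general epithelial genes. Trp63 was 8.03 in EPI and 8.34 in MES (-0.31, SE 0.06).

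At E14.5 the direction for Krt5 and Krt14, the basal pair, had turned. In VNO 5 of the 8, Krt5, Krt14, Krt15, Krt17 and Krt19, were higher in EPI, against 2.43% of all clusters. Krt19 was 9.88, 9.64 and 9.72 in EPI and 7.86, 7.76 and 7.59 in MES, a 4.03-fold difference (SE 0.11 on the log2 scale, limma adjusted p = 0.000386). Krt17 was 10.12, 10.10 and 10.18 in EPI and 8.18, 8.12 and 8.14 in MES, a 3.97-fold difference. Krt14 (1.75, SE 0.16), Krt5 (1.50, SE 0.10) and Krt15 (1.16, SE 0.08) followed. Krt18 was higher in EPI by 0.67, under the size for a call, at 10.84, 10.69 and 10.79 against 10.16, 10.12 and 10.04 in MES. All clusters had a median shift of -0.24 here. With arrays centred on their medians Krt18 averaged 4.03 in EPI and 3.01 in MES, so its excess in EPI was larger on that scale. Krt23 differed by -0.13 and was not called. In the same arrays 0 of the 7 general epithelial markers were called higher in EPI and 1, Cldn7, was called lower.

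In OE at E14.5, Krt14 (1.46, SE 0.27, limma adjusted p = 0.00949) and Krt19 (1.95, SE 0.19, limma adjusted p = 0.00175) were called higher in EPI, against 0.788% of all clusters. Krt5 (1.27, limma adjusted p = 0.0507) and Krt17 (1.23, limma adjusted p = 0.0556) just missed. Both were higher on every EPI array, as were 9.89% of all clusters. Krt5 and Krt17 were called after median centring (6.26% of all clusters called higher) and by Rank Products (0.813%), which made 4 keratins in each case. Without EPI OE replicate 2 there were 6, with Krt1, Krt5, Krt15 and Krt17 added. Krt18 (0.23, SE 0.13) and Krt23 (-0.11, SE 0.14) no longer passed the test, in a comparison with a median shift of -0.33 over all clusters. With arrays centred on their medians Krt18 averaged 3.49 in EPI and 2.76 in MES, and Krt23 0.35 and -0.04.

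**Figure D3:**
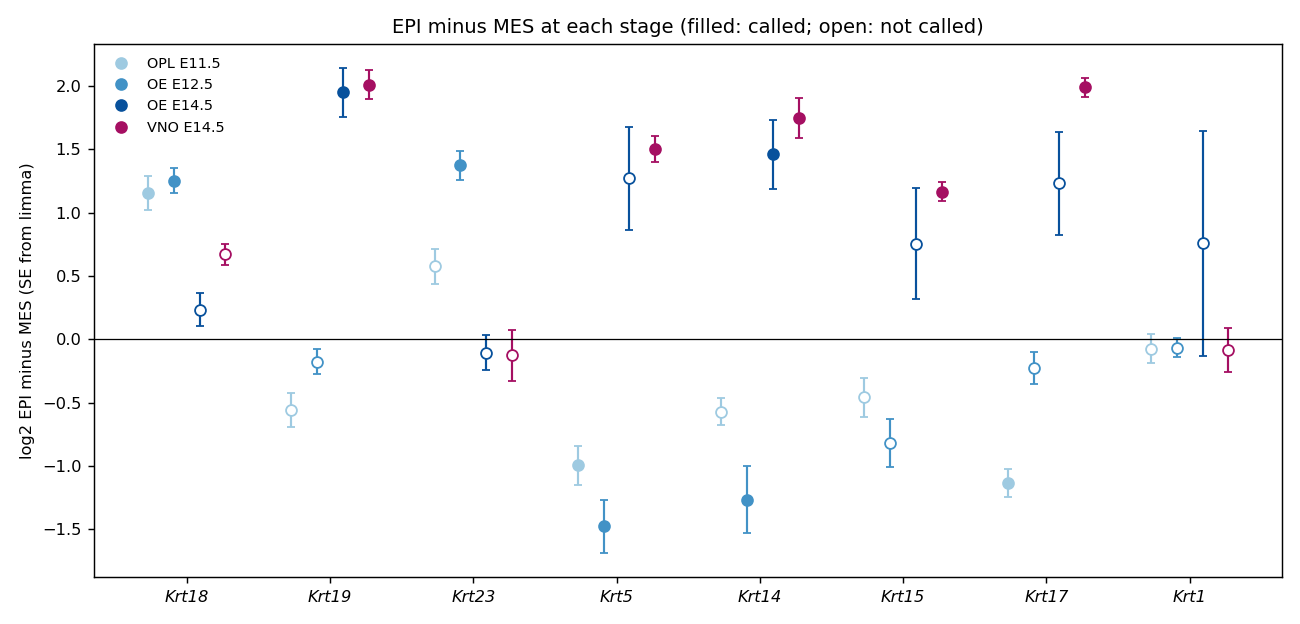
Log2 difference between EPI and MES (y axis, first minus second) for each keratin (x axis) at 4 stages, each mean of 3 arrays against 3, with the SE from limma as bars. Filled points were called and open ones were not. Krt5 moves from -1.48 at OE E12.5 to 1.50 at VNO E14.5, and Krt23 from 1.37 to -0.13.

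Whether the change with age differed between fractions was tested by an interaction term over 12 arrays. The median term of all clusters was 0.30 for OE and 0.42 for VNO, and single terms are to be read against these. For OE, the change from OPL was larger in EPI for Krt5, Krt14, Krt17 and Krt19, with 11.8% of all clusters called in that direction, and smaller for Krt18, with 6.33% in the other. Krt19 stood out with 2.51 (SE 0.24, limma adjusted p = 0.000135), which is a rise of 3.31 in EPI and of 0.80 in MES. Krt18 rose by 0.79 in EPI and by 1.71 in MES, a difference of -0.92 (SE 0.19, limma adjusted p = 0.00401), just past the size for a call and under it in 4 of the leave-one-out fits. For Krt1 the term was 0.83 (SE 0.97) and was not called, and it ran from -0.07 to 1.80 as single arrays were left out. Without EPI OE E14.5 replicate 2, Krt1 (1.80, limma adjusted p = 0.0202) and Krt15 (1.68, limma adjusted p = 0.00323) were called.

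For VNO, the change was larger in EPI for Krt5, Krt14, Krt15, Krt17 and Krt19, with 20.2% of all clusters called in that direction. The largest was Krt17, at 3.12 (SE 0.12, limma adjusted p = 1.14e-06), with a rise of 4.89 in EPI and 1.77 in MES. The Krt5 term was 2.50 (SE 0.19) and that of Krt14 2.32 (SE 0.20). Krt1 rose about equally in both fractions (-0.01, SE 0.22). Krt18 (-0.49, SE 0.16) and Krt23 (-0.70, SE 0.26) went the other way without being called. Against the median term of 0.42 both are larger in size, and the positive terms are smaller. After median centring 9.03% of all clusters were called with the larger change in EPI and 8.51% with the smaller.

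**Figure D4:**
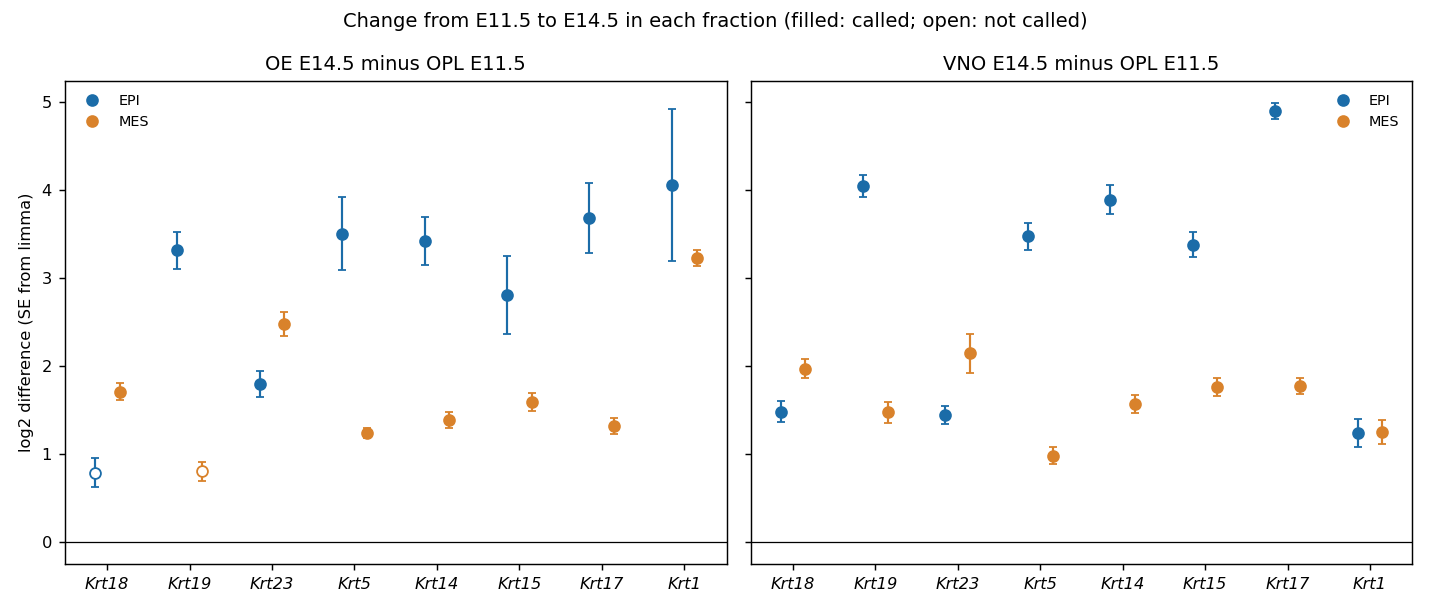
Log2 change from OPL E11.5 to OE E14.5 (left) and to VNO E14.5 (right) in EPI (blue) and MES (orange) for each keratin (x axis), as a difference of means of 3 arrays with the SE from limma. Filled points were called. EPI lies above MES for Krt5, Krt14, Krt15, Krt17 and Krt19, and below it for Krt18 and Krt23.

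The last comparison set Dlx5-/- against WT nasal tissue at E12.5. Dlx5 encodes a homeodomain transcription factor of the olfactory placode. Its own cluster read 10.94, 11.03 and 10.99 in WT and 10.24, 10.30 and 10.17 in the knock-out, lower on every array, with a difference of -0.75. This is an incomplete loss of signal for a disrupted gene, and where the probes lie relative to the disruption was not examined. The basal keratins were higher in each Dlx5-/- pool than in any WT pool and Krt23 was lower. Arrays of the knock-out lay all above those of WT for 8.43% of all clusters and all under them for 11.8%. None of the 8 was called, with 0% of all 23332 clusters called higher and 0.00429% lower, although limma gave 3102 clusters an unadjusted p under 0.05.

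Krt5 was 9.34, 9.34 and 9.37 in WT and 9.98, 10.49 and 11.21 in Dlx5-/-, a 2.31-fold difference (1.21, SE 0.29, limma adjusted p = 0.231). The WT arrays were tight and the knock-out arrays spread. Krt14 was 8.64, 8.39 and 8.49 in WT and 9.41, 9.55 and 9.97 in Dlx5-/-, a 2.20-fold difference (SE 0.16 on the log2 scale, limma adjusted p = 0.146). Krt17 was 9.02, 9.32 and 8.99 in WT and 9.60, 10.21 and 10.50 in Dlx5-/- (0.99, SE 0.24, limma adjusted p = 0.229). For all 3 genes replicate 3 of the knock-out was the highest and replicate 1 the lowest. Krt19 (0.70, SE 0.17) and Krt15 (0.66, SE 0.09) were also higher in each knock-out pool, and Krt15 was tight in both groups, at 7.19, 7.35 and 7.26 against 7.996, 7.87 and 7.92.

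Krt23 was 9.04, 9.30 and 9.05 in WT and 6.85, 8.53 and 8.41 in Dlx5-/-, a difference of -1.20 (SE 0.43, limma adjusted p = 0.331). Replicate 1 of the knock-out lay far under the other 2, and without it the difference was -0.66. Krt18 was 11.10, 10.80 and 10.48 in WT and 9.89, 10.49 and 10.72 in Dlx5-/- (-0.43, SE 0.25), again lowest in replicate 1, and its groups overlapped. Krt1 differed by less than its spread (-0.05, SE 0.09), and Krt10 was 8.06, 8.13 and 8.07 in WT and 7.94, 7.96 and 7.91 in Dlx5-/-. Rank Products, with 0.214% of all clusters called higher and 0.544% lower, called Krt5, Krt14 and Krt17 higher and Krt23 lower in the knock-out.

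Other cell markers differed between these groups too. The 7 general epithelial genes averaged 11.21 to 11.23 in WT and 10.28, 11.10 and 11.19 in the 3 knock-out pools, so replicate 1 of the knock-out was the low one. Olfactory and neuronal genes averaged 11.09 to 11.32 in WT and 10.07, 10.83 and 10.87 in Dlx5-/-, and mesenchymal genes 10.41 to 10.51 and 10.85 to 11.12. The 27 stratified-epithelium genes averaged 9.22 to 9.30 in WT and 9.26, 9.51 and 9.67 in Dlx5-/-. None of the 28 other keratins or of the 28 stratified-epithelium genes measured on these arrays was called. The parts of tissue mix and of dissection in the keratin values were not tested. Without knock-out replicate 1 the difference was 1.50 for Krt5, 1.25 for Krt14 and 1.25 for Krt17, and without replicate 3 it was 0.88, 0.97 and 0.80. None was called in either case.

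**Figure D5:**
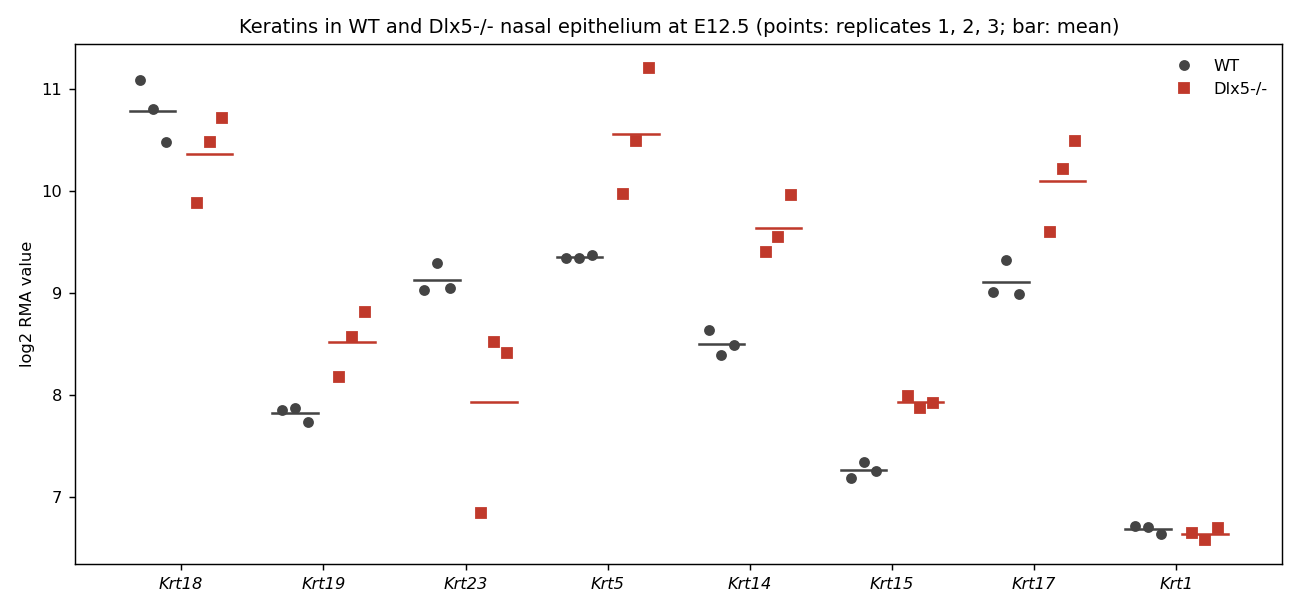
Log2 RMA values (y axis, not starting at 0) of 8 keratins (x axis) in WT (grey) and Dlx5-/- (red) nasal tissue at E12.5, with 3 arrays as points and their mean as a bar. Krt5, Krt14, Krt15, Krt17 and Krt19 are higher in all 3 knock-out arrays, and Krt23 is lower in all 3.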

How the data were processed

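RNA of pooled, hand-dissected mouse tissue was hybridised to Affymetrix Mouse Exon 1.0 ST arrays. The deposited values are log2 gene-level signals that the authors made by RMA. The study's methods describe a separate normalization for each pairwise comparison, while the single table used here behaved as 2 parts, of 24 and of 6 arrays, with 23238 and 23332 clusters filled. Array medians differ between groups and can move differences by up to the shift given beside them. Symbols came from the platform annotation, where 14996 clusters had 1 symbol and 1019 several. The labels' build is mm9, and no coordinate of the array is printed. Promoter windows and gene order came from RefSeq's GRCm38.p6 tables.

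Tests used limma 3.58.1 in R 4.3.3 (lmFit, eBayes) on the 6 arrays of a pair, or 12 for an interaction, with Benjamini-Hochberg adjustment over all clusters. Calls were made at 0.05 for the adjusted p and 0.9 for the size of the log2 difference, the minimum that the study used. The fits were tested on simulated data. Alternatives were Rank Products with 100 permutations, quantile normalization, median centring, a filter on dim clusters, no minimum difference, 1 fit over 24 arrays, a replicate block, leaving out each array, and subtraction of a mesenchymal share of 0.15. The number of arrays, 3 a group, limits the precision. Replicates are separate samples by their labels, and p-values measure only the spread between these pools. Replicate arrays correlated at 0.963 to 0.990, and 0 array pairs held identical values.

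The members and lists were chosen with earlier results of these data known. Some keratins were also picked from these samples by the study. By rule all measured keratins are described, and of other lists up to 4 called genes with the largest change are named per comparison. Genes outside this rule (Trp63, Tfap2a, Krt13, Krt77 and Krt79 among them, and the likeness of Krt1, Krt18 and Krt23) were chosen after their values were seen.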

Additional observations from a re-analysis of the deposited data

Results flagged for a closer look

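In 10 cases the change of a keratin from OPL at E11.5 to E14.5 differed between EPI and MES by the interaction test. For OE these were Krt5 (2.27), Krt14 (2.03), Krt17 (2.37) and Krt19 (2.51), with the larger rise in EPI, and Krt18 (-0.92), with the larger rise in MES. For VNO they were Krt5 (2.50), Krt14 (2.32), Krt15 (1.62), Krt17 (3.12) and Krt19 (2.57), all with the larger rise in EPI. All values are log2 differences of changes, and their median over all clusters was 0.30 for OE and 0.42 for VNO. The 2 organs share their E11.5 arrays, so their values are not separate evidence. General epithelial markers rose in MES over the same interval, and their part in these differences was not tested.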

How the results depend on the processing

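The alternatives gave 1730 values of single keratins, of which 0 reversed a call and 38, uncalled in both settings, had the other sign. The count of called keratins moved by over 1.5 times as follows. EPI OE E12.5 against OPL E11.5 (2 called) gave 1 after median centring, 1 after quantile normalization, 0 above the median brightness, where 2 keratins were left to test, 5 with no minimum difference, 0 by Rank Products, and 2 to 4 when an array was left out. EPI against MES in OE E14.5 (2) gave 4 after median centring, quantile normalization or the brightness filter, in 1 fit over all arrays and by Rank Products, and 2 to 6 when an array was left out. EPI against MES in OPL E11.5 (3) gave 7 with no minimum difference and 1 by Rank Products. EPI VNO against OPL (8) gave 5 by Rank Products, and EPI VNO against OE (0) gave 1 by Rank Products and 2 in 1 fit. MES OE E12.5 against OPL (2) gave 6 with no minimum difference. With dim clusters left out, MES OE E14.5 (7) gave 3 and MES VNO E14.5 (8) gave 5, all that were left to test, and MES VNO against OE (1) gave 0, and with no minimum difference 3. Dlx5-/- against WT (0) gave 4 by Rank Products. Except where a filter left fewer genes or the minimum was dropped, the cause was not tested.

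Deviations of same-numbered replicates from their group means correlated at -0.18 to 0.27. With 3 arrays a group this cannot show whether the numbers pair the samples, and the main fits did not pair them. With the replicate number as a block, the count for MES VNO against OE went from 1 to 0, and it changed no other call. Leave-one-out counts of the other comparisons stayed within 1.5 times of the full count. With 3 arrays a group, a missed call does not show equal levels.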
